A study of Homo sapiens with 6 samples.

Results

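The genes described here are 40 genes of mitosis and the G2/M transition, taken as a list of names, with earlier results of these data known, and looked up by symbol in a table of 26184 genes and loci. All 40 had a single entry, and all 40 had enough reads to be tested. Huh7 is a human hepatocellular carcinoma cell line. Its parental form (Huh7 P, 3 samples, no lenvatinib) was compared with the lenvatinib-resistant line derived from it (Huh7 LR, 3 samples), which had been cultured for 10 months under lenvatinib raised from 1 to 20 μM. Lenvatinib is a drug given for liver cancer that blocks the VEGF and FGF receptors among other kinases. Both lines are labelled wild type, and RNA was taken from plates at similar confluence. Huh7 LR is 1 line from 1 selection (whether it is a clone is not stated in the sources used here), and it was kept in 20 μM lenvatinib once established, so resistance, drug exposure and separate culture cannot be told apart. The p-values measure the spread between the 3 samples of each line, and this spread may be partly technical.

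Entry into mitosis is driven by CDK1 bound to cyclin A or cyclin B. Most genes of this group are silent or low in G1, rise through S phase and G2 and peak as cells divide, because the MuvB complex, with B-MYB and FOXM1, activates them late in the cycle, and the DREAM complex holds them down in resting cells. Their proteins then condense chromosomes, build the spindle, attach it to kinetochores, delay anaphase until attachment is complete and divide the cell. In the RNA of a whole culture, fewer cells in G2 and mitosis and less of these RNAs per such cell cannot be told apart.

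A shared feature of such genes is the cell cycle genes homology region (CHR), a short element near the start of transcription to which MuvB complexes bind, often with CCAAT boxes upstream, to which NF-Y binds. Promoter windows from RefSeq (GRCh38.p14, 250 bases before to 50 bases after a start) were found for 34 of the 40 genes, 41 windows in all. There were none for AURKA, BIRC5, FOXM1, TPX2, TTK and UBE2C. The CHR letters TTTGAA, on either strand, were in 28 of the 41 windows (68.3%) and in 15.2% of all 35116 windows. The letters CCAAT, on either strand, were in 32 windows (78.0%) against 34.6% of all windows. Both were in 23 windows (56.1%) against 5.90%. Wholly within the last 60 bases before the start, 16 of the 41 windows (39.0%) held TTTGAA on either strand, against 2.71% of all windows. Letters matching a motif describe the sequence and do not show that a factor binds.

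The 120 bases before the start are printed for 8 genes, in lower case with TTTGAA or its reverse complement TTCAAA, and CCAAT or its reverse complement ATTGG, in capitals. CCNB2, CDK1, PLK1 and CDC20 are shown as regulators of mitotic entry and exit. HMMR, MKI67 and CENPF are shown because they fell past 2-fold, and AURKB because it alone of the 40 did not pass the test. In MKI67, a TTTGAA and an ATTGG share a letter, and in HMMR a pair of TTTGAA stand end to end. In the order printed, the stretches lie at chr15:59105026-59105145 on the plus strand, chr10:60778358-60778477 on the plus strand, chr16:23678769-23678888 on the plus strand, chr1:43358861-43358980 on the plus strand, chr5:163460512-163460631 on the plus strand, chr10:128126424-128126543 on the minus strand, chr1:214603075-214603194 on the plus strand and chr17:8210226-8210345 on the minus strand. CDK1 and AURKB each have 2 windows in RefSeq, and 1 is shown for each. The CDK1 stretch that is not shown, chr10:60778211-60778330 on the plus strand, holds neither motif.
CCNB2: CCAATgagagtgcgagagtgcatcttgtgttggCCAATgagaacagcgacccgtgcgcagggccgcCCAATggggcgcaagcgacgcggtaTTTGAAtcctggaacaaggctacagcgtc
CDK1: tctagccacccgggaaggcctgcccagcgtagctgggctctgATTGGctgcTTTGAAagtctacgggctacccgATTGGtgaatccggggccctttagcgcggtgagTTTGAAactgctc
PLK1: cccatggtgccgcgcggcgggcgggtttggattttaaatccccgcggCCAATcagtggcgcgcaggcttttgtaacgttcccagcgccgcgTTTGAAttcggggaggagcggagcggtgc
CDC20: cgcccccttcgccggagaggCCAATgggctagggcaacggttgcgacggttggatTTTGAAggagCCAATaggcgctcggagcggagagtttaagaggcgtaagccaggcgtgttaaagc
HMMR: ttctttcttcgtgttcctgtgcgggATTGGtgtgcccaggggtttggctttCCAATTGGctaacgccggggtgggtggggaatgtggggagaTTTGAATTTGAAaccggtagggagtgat
MKI67: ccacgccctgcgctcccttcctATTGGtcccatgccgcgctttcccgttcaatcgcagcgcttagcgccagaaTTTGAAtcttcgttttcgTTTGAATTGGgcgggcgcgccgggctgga
CENPF: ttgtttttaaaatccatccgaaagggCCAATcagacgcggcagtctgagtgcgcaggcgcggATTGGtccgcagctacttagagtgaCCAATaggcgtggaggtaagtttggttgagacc
AURKB: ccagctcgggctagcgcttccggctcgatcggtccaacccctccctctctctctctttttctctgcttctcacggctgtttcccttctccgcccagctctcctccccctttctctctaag
In the stretches shown, CCNB2, CDK1, PLK1, CDC20, HMMR and MKI67 hold both motifs, CENPF holds CCAAT boxes without TTTGAA, and AURKB holds neither. The same stretch holds neither motif also in CENPE and NUF2, which fell past 2-fold, and in NDC80, MAD2L1 and KIF2C. CCAAT boxes without TTTGAA stand there also in CCNA2, CCNB1, BUB1, KIF20A, NEK2, NUSAP1, PTTG1 and TOP2A. ANLN, BUB1B and CENPA hold TTTGAA there without a CCAAT box. The whole CENPF window holds a TTTGAA after the start, and both AURKB windows hold a CCAAT box farther upstream.

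The depths of the libraries were alike, at 62738937 to 71427573 counted reads in Huh7 P and 63233655 to 70768720 in Huh7 LR. Each of the 40 genes had between 525 and 57388 reads in every library, so none was near the limit of detection. Levels are given as CPM, read counts brought to a common library size with edgeR's TMM factors, which compare 1 gene between libraries. FPKM values, which the authors also scaled for length, compare genes with each other. The hepatocyte genes ALB, AFP, APOA1, APOB, TTR, SERPINA1 and HNF4A were all expressed, at a summed 40120 to 48660 CPM in Huh7 P and 49850 to 52740 CPM in Huh7 LR. The 5 fibroblast markers summed to at most 8.02 CPM, with THY1 at 0. The 4 leukocyte markers summed to at most 3.67 CPM, with TYROBP at 0. Of the 3 endothelial markers, CDH5 was at 0, and the summed 38.8 to 47.5 CPM in Huh7 P and 65.0 to 71.2 CPM in Huh7 LR were nearly all PECAM1. Of the markers with enough reads to be tested, 3 of 7 hepatocyte genes, 2 of 2 fibroblast genes, 0 of 1 leukocyte genes and 2 of 2 endothelial genes were higher in Huh7 LR and none was lower, where 23.3% of all features tested were higher and 22.4% lower. Their part in the changes below was not tested.

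The mitosis genes were lower in Huh7 LR almost without exception. At an adjusted p under 0.05 from edgeR's quasi-likelihood test, 39 of the 40 were lower and 0 were higher, where 22.4% of all 17531 genes and loci tested were lower and 23.3% higher. No member was higher at an unadjusted p under 0.05 either (0 of 40), and DESeq2's Wald test also gave 39 lower and 0 higher. The shares of the 40 and of all features are not like for like, since their levels differed. The median in Huh7 P was 36.2 FPKM over the 40 and 4.13 FPKM over all genes and loci tested. Differences are given as log2 of Huh7 LR over Huh7 P with their standard error (SE). The median of the 40 was -0.63 (range -1.55 to -0.06), beside 0.00461 over all genes and loci tested. For 32 of the 40, Huh7 LR was lower by 20 to 50 percent. A change above 2-fold at an adjusted p under 0.001 was reached by 7 genes, all lower, where 1.78% of all features were lower by that rule, 4.42% higher and 6.2% either. These were CENPF, CENPE, HMMR, TTK, NUF2, ECT2 and MKI67. ECT2 and MKI67 lay near 2-fold. ECT2 fell short of it without Huh7 P replicate 3, without Huh7 LR replicate 2 and in limma fits of log2(FPKM + 0.1) and log2(FPKM + 1). MKI67 fell short without Huh7 P replicate 1, without Huh7 LR replicate 2, with library totals in place of TMM factors, with at least 10 counts required in every library and on log2(FPKM + 1). An offset for GC content and transcript length, described further on, left 4 of the 7, without HMMR, NUF2 and ECT2.

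In 39 of the 40 genes every Huh7 LR library was below every Huh7 P library, a separation in that direction found in 27.7% of all features (55.9% in either direction). Per library, the median of the 40 genes relative to their Huh7 P mean was -0.058, 0.0090 and 0.059 on the log2 scale in Huh7 P replicates 1, 2 and 3, and -0.69, -0.53 and -0.67 in Huh7 LR replicates 1, 2 and 3. All 40 genes lay below the Huh7 P mean in Huh7 LR replicates 1 and 3, and 39 did in replicate 2. Replicate 2 was the highest Huh7 LR library for 26 genes and replicate 1 the lowest for 26, so that libraries of 1 line differed a little for many genes together. Reads on the 40 genes were 0.639%, 0.640% and 0.652% of the total for Huh7 P, as against 0.396%, 0.399% and 0.404% for Huh7 LR. This share was 0.622 times as large in Huh7 LR (two-sided exact permutation test, p = 0.1, the smallest that 3 samples against 3 can give). The share is taken from raw totals and does not rest on the TMM factors.

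**Figure D1:**
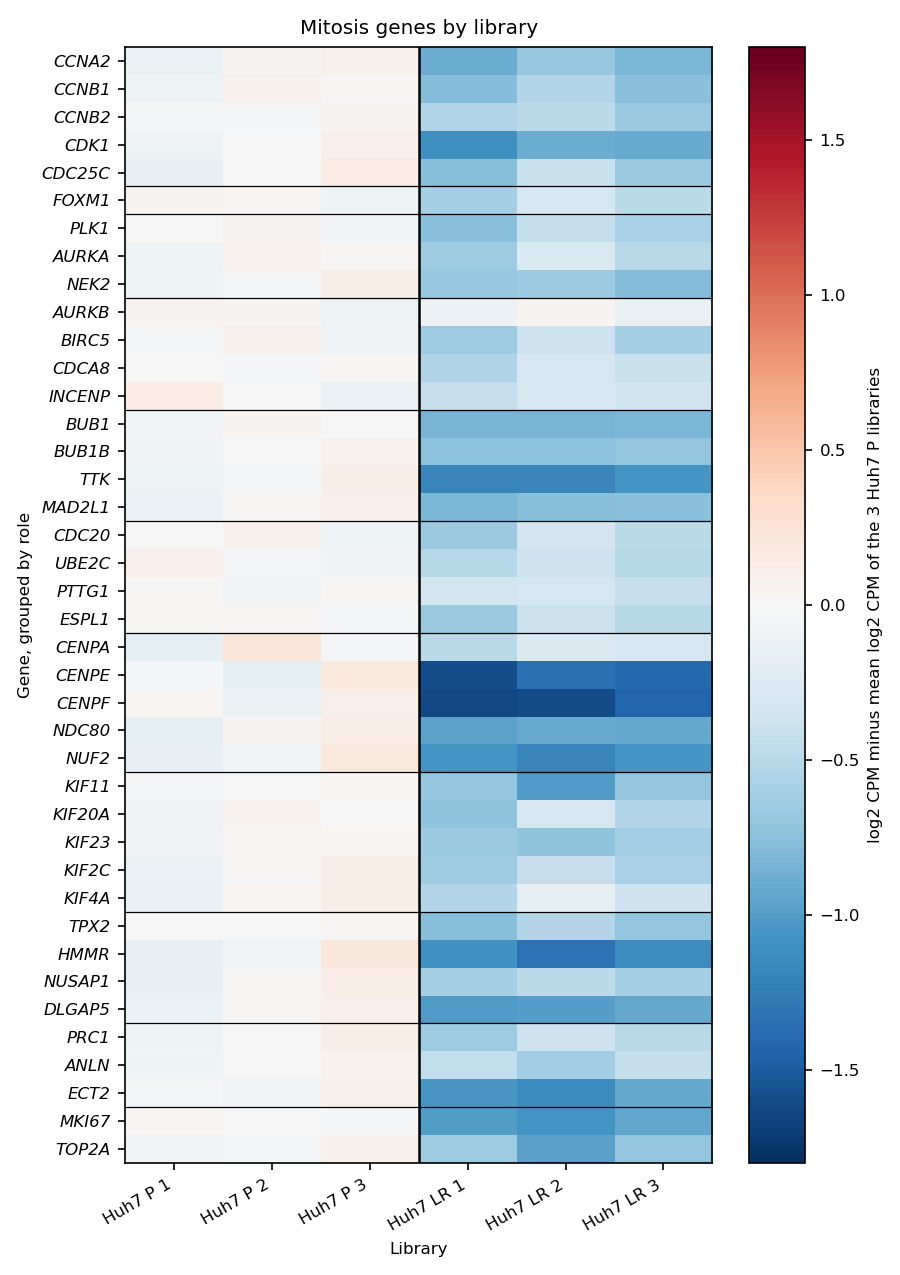
Heat map of the 40 mitosis genes (rows, grouped by role) in the 6 libraries (columns). Colour gives log2 CPM minus the mean log2 CPM of the 3 Huh7 P libraries. The Huh7 LR columns are blue in nearly every row, deepest for CENPF and CENPE, and AURKB stays pale in all 6 libraries.

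Among the genes that start mitosis, CDK1, the kinase that drives entry, fell most. The 3 Huh7 P libraries held 112, 119.6 and 127 CPM of CDK1, and the Huh7 LR libraries held 55.4, 63.9 and 63.4 CPM. The lines did not overlap, with a log2 difference of -0.97 (SE 0.08, adjusted p = 5.41e-06) for CDK1 (ENSG00000170312, chromosome 10, 60778331 to 60794852, in GRCh38 as are all gene positions here). For CCNB1, Huh7 P had 163, 183 and 176 CPM and Huh7 LR had 102, 121 and 103 CPM. CCNB1 encodes cyclin B1, the main partner of CDK1 (ENSG00000134057, chromosome 5, 69167010 to 69178245), and had a log2 difference of -0.68 (SE 0.08, adjusted p = 7.70e-05). Cyclin A2 (CCNA2) had a log2 difference of -0.80 (adjusted p = 2.19e-05), cyclin B2 (CCNB2) one of -0.56 (adjusted p = 1.13e-04), and CDC25C, the phosphatase that activates CDK1, one of -0.60 (adjusted p = 9.04e-04). All 5 genes of this group were lower. With the offset for GC content and transcript length, CDK1 was at -0.73 and CCNA2 at -0.74, so their order depends on the setting.

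FOXM1 is the transcription factor that drives much of the G2/M programme. FOXM1 was at 181, 179 and 166 CPM in Huh7 P and at 116, 141 and 127 CPM in Huh7 LR. The groups did not overlap, and FOXM1 (ENSG00000111206, chromosome 12, 2857681 to 2877155) had a log2 difference of -0.46 (SE 0.08, adjusted p = 9.25e-04), which is nearer to 0 than the median of the 40 genes. Its exons overlap ITFG2 on the opposite strand over 15.9% of their length, and ITFG2 had 685 reads beside 12993 on FOXM1 in Huh7 P replicate 1. Overlaps were sought only with other annotated genes that have an entry in these counts. Exons of 7 of the 40 genes overlap such a gene on the opposite strand, and those of 4 overlap one on the same strand. Those of 29 overlap none of them. The strand setting of the counting is not given in the sources used here, so such reads cannot be told apart. The mitotic kinases also fell. PLK1, which acts from mitotic entry to cytokinesis, had a log2 difference of -0.58 (adjusted p = 2.47e-04). AURKA, the kinase of centrosomes and spindle poles, had -0.47 (adjusted p = 0.0018), and NEK2, which splits centrosomes, had -0.71 (adjusted p = 3.20e-05).

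The chromosomal passenger complex corrects faulty attachments and guides cytokinesis, and it held the 1 gene that did not pass. It joins the kinase AURKB to INCENP, survivin (BIRC5) and borealin (CDCA8). The 3 Huh7 P libraries held 114, 114 and 103 CPM of AURKB, and the Huh7 LR libraries held 102, 115 and 100.1 CPM. The lines overlapped, and AURKB (ENSG00000178999, chromosome 17, 8204733 to 8210600) had a log2 difference of -0.06 (SE 0.08, adjusted p = 0.538). For INCENP, Huh7 P had 166, 150.1 and 139 CPM and Huh7 LR had 113, 124 and 118 CPM. For INCENP (ENSG00000149503, chromosome 11, 62123973 to 62153163) every Huh7 LR library was below the Huh7 P libraries, with a log2 difference of -0.36 (SE 0.08, adjusted p = 0.00355). CDCA8 was at 67.1, 66.4 and 68.03 CPM in Huh7 P and at 46.4, 54.6 and 50.7 CPM in Huh7 LR. The lines stood apart, and CDCA8 (ENSG00000134690, chromosome 1, 37692418 to 37709719) had a log2 difference of -0.41 (SE 0.07, adjusted p = 0.00105). BIRC5 had a log2 difference of -0.53 (adjusted p = 3.52e-04).

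The 4 genes of the spindle checkpoint, which holds back anaphase until every kinetochore is attached, were all lower. The 3 Huh7 P libraries held 71.1, 74.3 and 82.3 CPM of TTK, and the Huh7 LR libraries held 33.1, 33.1 and 36.4 CPM. TTK encodes MPS1, the kinase that starts the checkpoint signal (ENSG00000112742, chromosome 6, 80003887 to 80042527), and had a log2 difference of -1.15 (SE 0.08, adjusted p = 1.59e-06), so that its level in Huh7 LR was 45.1% of that in Huh7 P. The checkpoint kinases and adaptors BUB1, BUB1B and MAD2L1 had log2 fold changes of -0.83, -0.73 and -0.78, with adjusted p of 3.02e-06, 1.01e-05 and 1.00e-05 from the same edgeR test. For BUB1, Huh7 P had 93.02, 99.2 and 96.9 CPM and Huh7 LR had 53.97, 54.03 and 54.4 CPM. The lines were well apart for BUB1.

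The 4 genes listed here for anaphase and its ubiquitin ligase, the APC/C, were all lower, with a median log2 fold change of -0.48. Of 17 other APC/C subunits and regulators, described further on, 7 were lower and 0 higher at an adjusted p under 0.05 from edgeR's test. PTTG1 was at 103, 98.2 and 103 CPM in Huh7 P and at 80.3, 81.1 and 76.2 CPM in Huh7 LR. PTTG1 encodes securin, the inhibitor of separase that the APC/C destroys (ENSG00000164611, chromosome 5, 160421822 to 160428744), and had a log2 difference of -0.35 (SE 0.06, adjusted p = 0.00112). The groups did not overlap. CDC20, the activator of the APC/C in mitosis, had a log2 difference of -0.49 (adjusted p = 0.00107). UBE2C, its ubiquitin-conjugating enzyme, had -0.47 (adjusted p = 3.60e-04), and ESPL1, which encodes separase, had -0.52 (adjusted p = 3.16e-04).

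Among the role groups of the 40 genes, the centromere and kinetochore genes showed the widest range, from -1.55 to -0.36. The 3 Huh7 P libraries held 355, 318 and 368 CPM of CENPF, and the Huh7 LR libraries held 113, 113 and 129 CPM. CENPF encodes a large coiled-coil protein of the outer kinetochore (ENSG00000117724, chromosome 1, 214603195 to 214664588), and its log2 difference of -1.55 (SE 0.08, adjusted p = 3.58e-07) was the lowest of the 40. For CENPE, Huh7 P had 82.2, 74.3 and 95.3 CPM and Huh7 LR had 27.6, 32.97 and 31.7 CPM. CENPE, the kinesin that moves chromosomes to the spindle equator (ENSG00000138778, chromosome 4, 103105806 to 103198409), followed with a log2 difference of -1.45 (SE 0.10, adjusted p = 1.88e-06). For both genes the highest Huh7 LR library was below 50% of the lowest Huh7 P library. NUF2 and NDC80 are partners in the complex that grips microtubules. NUF2 was at 33.00, 35.2 and 41.4 CPM in Huh7 P and at 17.3, 15.99 and 17.4 CPM in Huh7 LR. The lines stood apart, and NUF2 (ENSG00000143228, chromosome 1, 163266576 to 163355764) had a log2 difference of -1.11 (SE 0.10, adjusted p = 7.68e-06), while NDC80 had -0.93 (adjusted p = 1.06e-05).

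CENPA, the histone H3 variant that marks centromeres, had the fewest reads of the 40 genes and the highest adjusted p of the 39 called lower. The 3 Huh7 P libraries held 10.03, 13.1 and 11.03 CPM of CENPA, and the Huh7 LR libraries held 8.05, 9.44 and 9.15 CPM. The highest Huh7 LR library lay just under the lowest Huh7 P library, and CENPA (ENSG00000115163, chromosome 2, 26764289 to 26801067) had a log2 difference of -0.36 (SE 0.13, adjusted p = 0.0367). It no longer passed without Huh7 P replicate 2 (adjusted p = 0.180), Huh7 P replicate 3 (adjusted p = 0.0698), Huh7 LR replicate 1 (adjusted p = 0.0968) or Huh7 LR replicate 3 (adjusted p = 0.0711). CENPA shares 138 exon bases (6.96% of its exon length) with SLC35F6 on the same strand, a gene with 1325 to 1764 reads per library. With the reads of both summed, most of them from SLC35F6, the log2 difference was 0.016 (adjusted p = 0.884), while CENPA alone had a negative value in every other setting.

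Of the 5 kinesins, all were lower. For KIF4A, Huh7 P had 124, 139 and 146 CPM and Huh7 LR had 94.6, 120.1 and 105 CPM. KIF4A works on condensed chromosomes and the central spindle (ENSG00000090889, chromosome X, 70290090 to 70420832), and its lines were separated by the narrow gap between Huh7 P replicate 1 and Huh7 LR replicate 2. It had a log2 difference of -0.36 (SE 0.10, adjusted p = 0.0106), and did not pass without Huh7 P replicate 3 (adjusted p = 0.0529). KIF11, which pushes spindle poles apart, had a log2 difference of -0.80 (adjusted p = 3.84e-05). KIF23 and KIF20A, kinesins of cytokinesis, had -0.67 (adjusted p = 1.93e-05) and -0.51 (adjusted p = 0.00147), and KIF2C, a microtubule depolymerase at centromeres, had -0.54 (adjusted p = 3.82e-04).

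Spindle assembly genes fell by a median of 0.82 on the log2 scale over 4 genes. HMMR was at 56.3, 60.7 and 71.9 CPM in Huh7 P and at 29.5, 24.95 and 28.5 CPM in Huh7 LR. HMMR encodes a receptor for hyaluronan that also binds spindle poles (ENSG00000072571, chromosome 5, 163460203 to 163491945), and with no overlap between the lines it had a log2 difference of -1.19 (SE 0.10, adjusted p = 6.54e-06). DLGAP5, which stabilises spindle fibres near chromosomes, had a log2 difference of -0.98 (adjusted p = 3.24e-06). TPX2, the activator of AURKA on the spindle, had -0.66 (adjusted p = 4.86e-05), and NUSAP1, a microtubule-bundling protein, had -0.56 (adjusted p = 2.27e-04). The exons of NUSAP1 are shared over 62.2% of their length with AC087721.2 on the same strand, and with the reads of both summed the log2 fold change was -0.53.

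All 3 genes of cytokinesis were lower, ECT2 past 2-fold. The 3 Huh7 P libraries held 186, 182 and 199.9 CPM of ECT2, and the Huh7 LR libraries held 91.5, 85.4 and 99.9 CPM. ECT2, the exchange factor that switches on RhoA at the cleavage site (ENSG00000114346, chromosome 3, 172750682 to 172821474), had a log2 difference of -1.04 (SE 0.08, adjusted p = 2.84e-06). PRC1, which bundles microtubules of the central spindle, had -0.50 (adjusted p = 6.08e-04), and ANLN, the scaffold of the contractile ring, had -0.50 (adjusted p = 3.29e-04). PRC1 shares 57.6% of its exon length with AC068831.7 on the same strand, and its log2 fold change was -0.42 with the reads of both summed.

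MKI67 and TOP2A are common markers of cycling cells. For MKI67, Huh7 P had 754, 736 and 714 CPM and Huh7 LR had 365, 347 and 383 CPM. MKI67 encodes Ki-67, which coats mitotic chromosomes (ENSG00000148773, chromosome 10, 128096659 to 128126385), and it had a log2 difference of -1.01 (SE 0.07, adjusted p = 1.42e-06). TOP2A was at 799.7, 811 and 873 CPM in Huh7 P and at 531, 419 and 504 CPM in Huh7 LR. TOP2A encodes the topoisomerase that untangles sister chromosomes (ENSG00000131747, chromosome 17, 40388516 to 40417950), and it had a log2 difference of -0.77 (SE 0.09, adjusted p = 5.79e-05). Neither gene overlapped between the lines, and the lowest TOP2A value was that of Huh7 LR replicate 2, the library with the highest median over the 40 genes within Huh7 LR, although its share of reads on them was between those of the other libraries of the line.

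**Figure D2:**
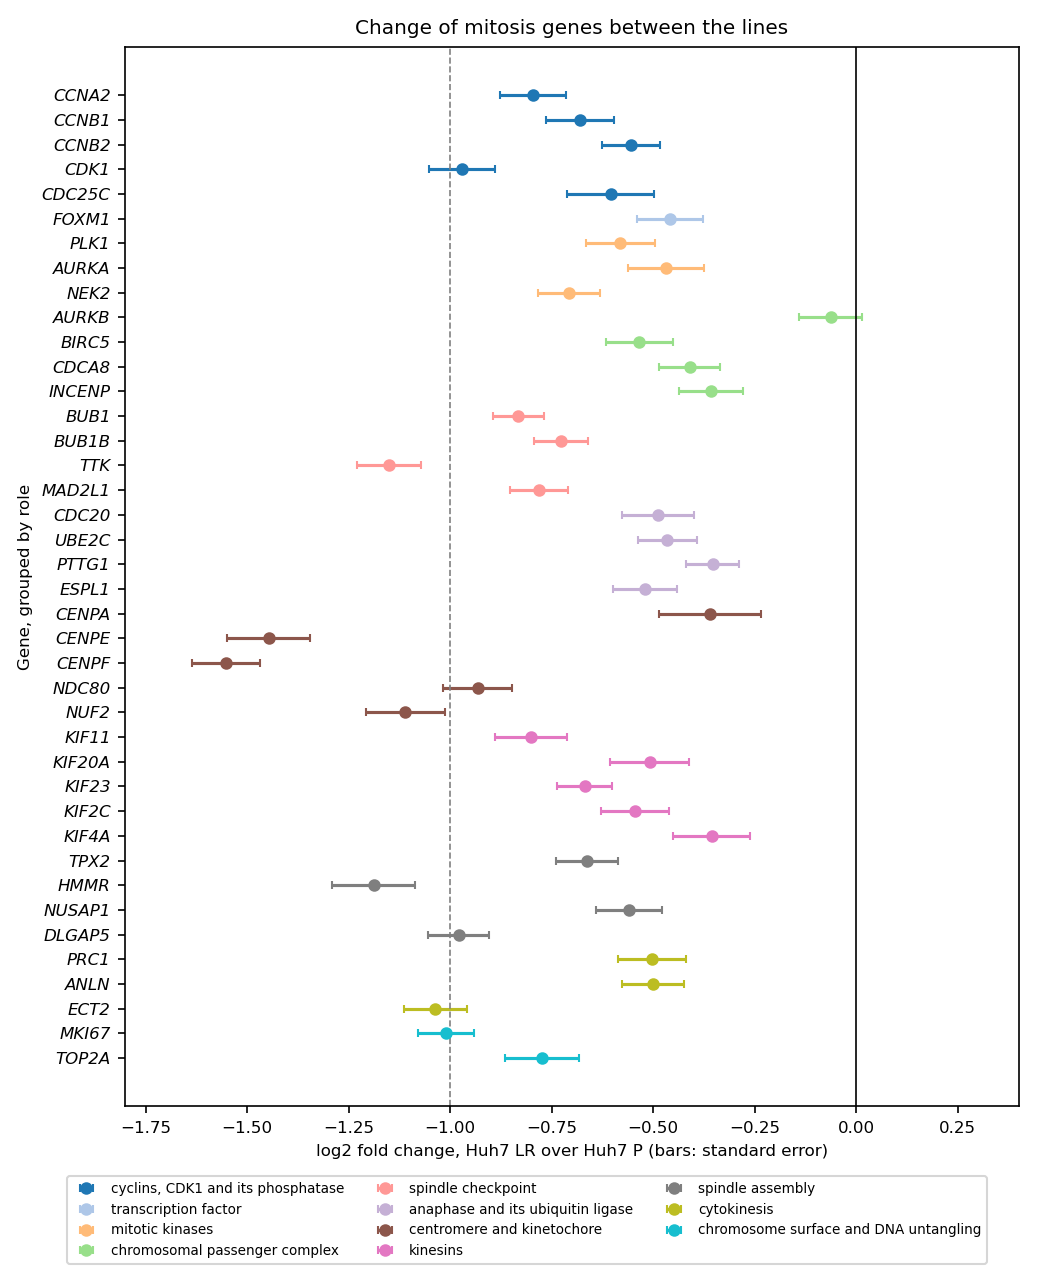
Log2 fold change of each of the 40 genes (Huh7 LR over Huh7 P, 3 samples each) with its standard error, coloured by role. The line at 0 marks no change and the dashed line a 2-fold decrease. All 40 points lie left of 0, from -1.55 for CENPF to -0.06 for AURKB.

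The order of levels among the genes was largely kept. On the FPKM scale, TOP2A was the highest in Huh7 P at 132 ± 5.17 FPKM (SD, n = 3) and PTTG1 the highest in Huh7 LR at 94.5 ± 3.28 FPKM (SD, n = 3). CENPA was the lowest in Huh7 P at 7.46 ± 1.05 FPKM (SD, n = 3), and CENPE the lowest in Huh7 LR at 3.50 ± 0.291 FPKM (SD, n = 3). Between neighbours in this order, the libraries overlapped in 28 of 39 steps in Huh7 P and in 32 of 39 in Huh7 LR, so most neighbours did not differ beyond their spread. Spearman's correlation of the mean levels between the lines was 0.959 over the 40 genes, which are not independent and share their libraries. CENPF moved farthest, from rank 25 in Huh7 P to rank 35 in Huh7 LR, and AURKB went from rank 5 to rank 2.

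**Figure D3:**
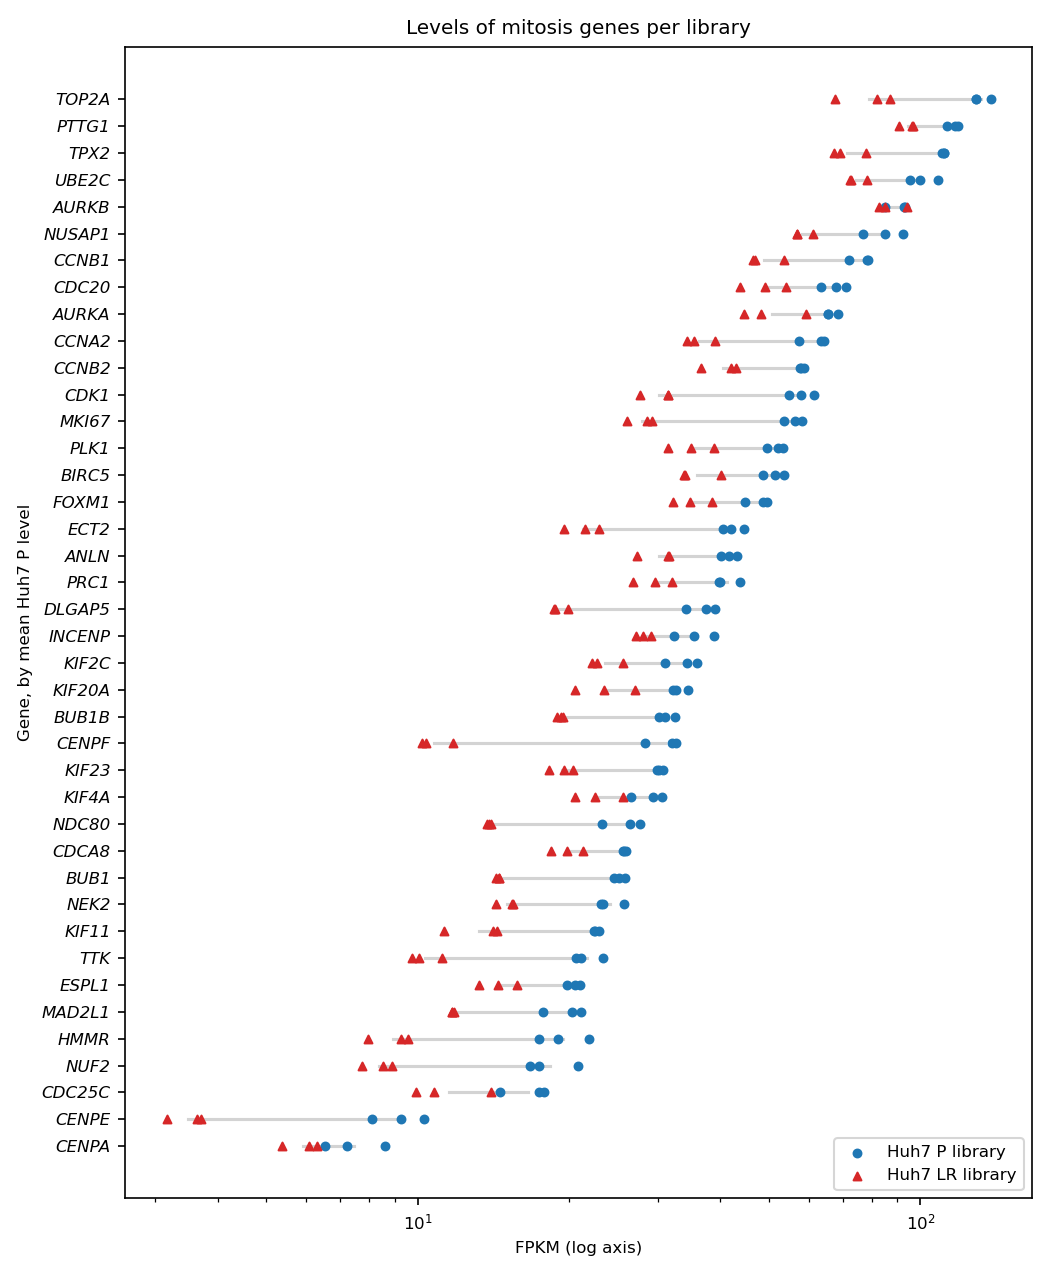
FPKM of the 40 genes in each library (log axis), ordered by mean level in Huh7 P, with circles for Huh7 P and triangles for Huh7 LR. The triangles lie left of the circles in nearly every row, with the widest gaps for CENPF and CENPE, and the symbols mix for AURKB.

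Ratios of reads between a pair of genes in the same library do not depend on how libraries are scaled. A set of 10 such pairs, chosen after the values were seen, were compared by two-sided exact permutation tests over the 6 libraries, where 0.1 is the smallest possible p. AURKB had 0.808, 0.761 and 0.756 reads per read of BIRC5 in Huh7 P, as against 1.11, 1.05 and 1.07 in Huh7 LR. The lines did not overlap, and the ratio was 1.39 times as high in Huh7 LR (exact p = 0.1, adjusted p = 0.125 over 10 pairs). The ratio of AURKB to INCENP was 1.22 times as high and that to CDCA8 1.27 times, both without overlap and with the same p. CENPF per CENPA was 0.432 times as high in Huh7 LR, CCNB1 per CDK1 1.22 times, and NUF2 per NDC80 0.884 times, again with no overlap and the same p. For CDC20 per BUB1B and UBE2C per PTTG1 the lines overlapped (exact p = 0.2, adjusted p = 0.2). None of the 10 pairs passed a threshold of 0.05, which this number of libraries cannot reach.

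The size of the decrease went with the base composition of the transcripts, being larger where GC content was lower. Over the 40 genes, Spearman's correlation between the log2 fold change and the GC content of the longest transcript was 0.770 (Pearson 0.709), and over all 14053 annotated genes tested it was 0.232 (Pearson 0.138). The log2 fold change also went with transcript length over the 40 genes (Spearman -0.367, Pearson -0.521), and over all annotated genes tested the values were -0.018 and -0.015. The points share the same 6 libraries, and genes are not independent. The 21 members under 45% GC, a value chosen after the data were seen, had a median log2 fold change of -0.80 (range -1.55 to -0.50), and the 19 others one of -0.49 (range -1.01 to -0.06). CENPE, at 35.3% GC the lowest, fell by 1.45 on the log2 scale, and INCENP, at 59.6% the highest, by 0.36. MKI67 was below the trend at 48.3% GC. Among all annotated genes tested, the medians were -0.15 under 45% GC and 0.067 at or above it. When GC content and transcript length were fitted in each library and used as an offset, 39 members were still lower and 0 higher, and the median was -0.64. The correlation with GC over the 40 genes was then 0.528, and only TTK, CENPE, CENPF and MKI67 stayed past 2-fold at an adjusted p under 0.001. HMMR, NUF2 and ECT2 were then at -0.96, -0.92 and -0.86.

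**Figure D4:**
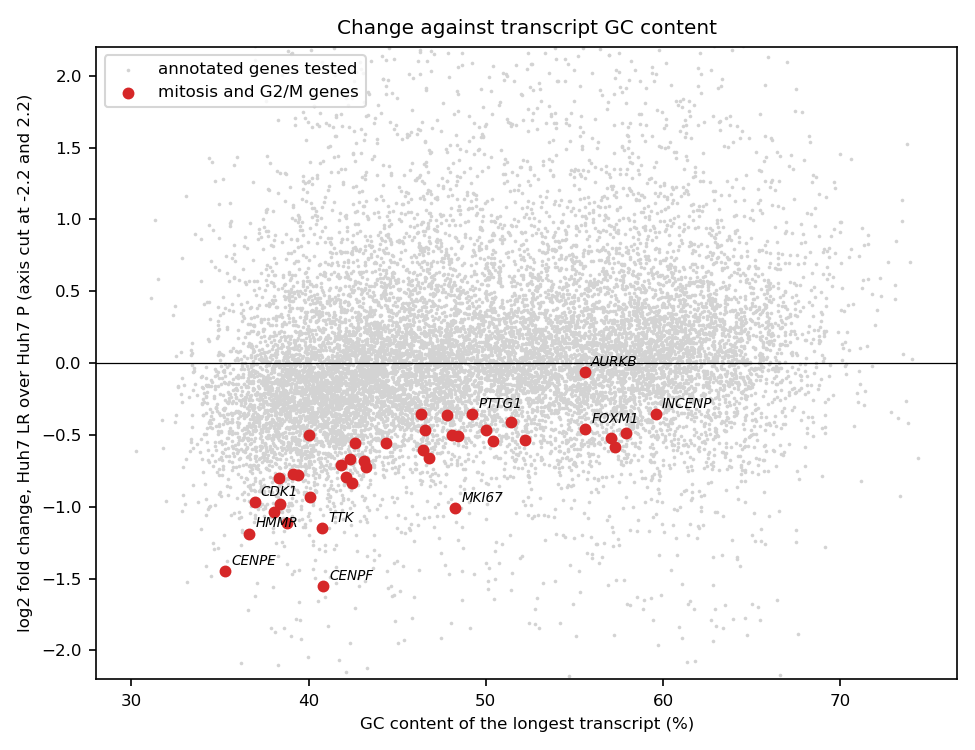
Log2 fold change (Huh7 LR over Huh7 P) against the GC content of the longest transcript, for the 40 mitosis genes (red) and all annotated genes tested (grey). Grey points beyond the ends of the vertical axis are not shown. The red points run from CENPE at 35.3% GC and -1.45 up to AURKB and INCENP above 55% GC.

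Other genes of the same processes were lower too in most cases. Of all features, 22.4% were lower and 23.3% higher at an adjusted p under 0.05 from edgeR's test. Past 2-fold at an adjusted p under 0.001, 1.78% of all features were lower. In the lists where 0 genes were higher, DESeq2's Wald test also gave 0. Of 30 other spindle and cytokinesis genes, 28 were lower and 0 higher at an adjusted p under 0.05 (median log2 fold change -0.52), and at an unadjusted p under 0.05 also 0 were higher. ASPM, which focuses spindle poles, had a log2 difference of -1.53 (SE 0.08, adjusted p = 3.58e-07). KIF20B, KIF14, ARHGAP11A and KIF18A also fell past 2-fold, with log2 fold changes of -1.41, -1.34, -1.14 and -1.08. The smallest change was that of KIF22, at -0.21 (adjusted p = 0.0811). All 19 condensin and cohesin genes were lower (median -0.52), from -0.998 for SMC2, a core subunit of condensin, to -0.25 for NCAPH2. Of 35 other kinetochore genes, 28 were lower and 0 higher (median -0.52), and 1 was higher at an unadjusted p under 0.05. SGO2, a protector of centromeric cohesion, and CENPK fell past 2-fold, at -1.29 and -1.03 on the log2 scale, and MAD1L1 had the highest value at 0.27 (adjusted p = 0.0647).

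Regulators of these genes and proteins were compared in the same way. Of 12 G2/M entry regulators, 9 were lower and 1 was higher (median -0.51). MASTL, the kinase that restrains the phosphatase opposing CDK1, had the lowest value at -0.96 (adjusted p = 1.09e-05). WEE1, the kinase that inhibits CDK1, was the 1 that rose, with a log2 difference of 0.24 (SE 0.07, adjusted p = 0.0196), and it did not pass without Huh7 P replicate 1 or without Huh7 P replicate 2. Of 17 APC/C subunits and regulators, 7 were lower and 0 higher, also at an unadjusted p under 0.05 (median -0.19). They ran from -0.61 (adjusted p = 1.49e-04) for the inhibitor FBXO5 to 0.16 (adjusted p = 0.152) for the subunit ANAPC2. Among 12 genes of MuvB, DREAM and B-MYB, 4 were lower (33.3%) and 1 was higher (8.33%), beside 22.4% and 23.3% of all features (median -0.086). LIN9, a MuvB subunit, had a log2 difference of -1.02 (SE 0.09, adjusted p = 6.06e-06), and TFDP2, a partner of E2F factors, rose by 0.53 (adjusted p = 2.73e-04) on the log2 scale.

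Lists for S phase and G1 were counted next. Of 46 DNA replication and S phase genes, 35 were lower and 1 was higher (median -0.38). POLA2, a subunit of the polymerase that makes primers, had a log2 difference of -1.21 (SE 0.13, adjusted p = 2.43e-05), and RFC2, part of the clamp loader, rose by 0.43 (adjusted p = 0.00937) on the log2 scale. Of 15 G1 cyclins and CDK inhibitors tested, 3 were lower (20%) and 3 higher (20%), close to the 22.4% and 23.3% of all features (median 0.020), and CCND2 had too few reads to test. CDKN1A encodes p21, the inhibitor of cyclin-dependent kinases, and was called higher past 2-fold. It was at 34.2, 37.4 and 34.1 CPM in Huh7 P and 78.2, 68.2 and 66.8 CPM in Huh7 LR, without overlap, with a log2 difference of 1.01 (SE 0.08, adjusted p = 4.39e-06). CDK6, a kinase of G1, had the lowest value of that list at -0.63 (adjusted p = 0.00358). Differences between the lists were not tested.

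**Figure D5:**
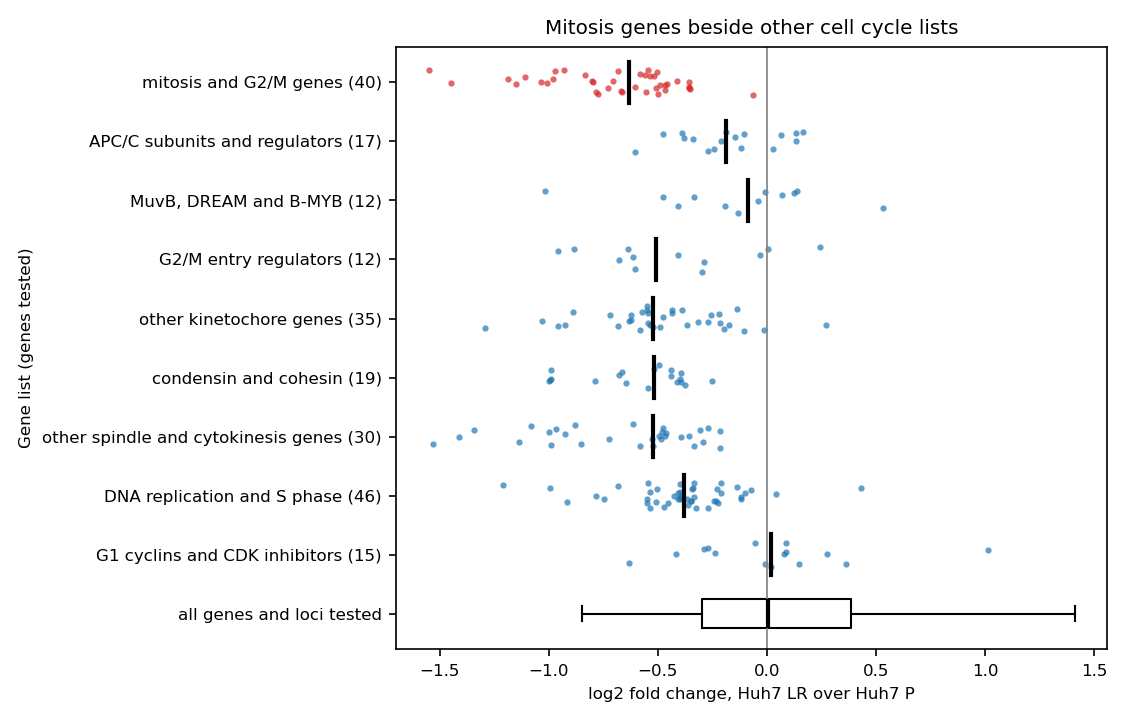
Log2 fold change (Huh7 LR over Huh7 P) of each gene in the mitosis and G2/M list (red) and in 8 other cell cycle lists (blue), with a bar at each median and a box for all genes and loci tested (quartiles, whiskers at the 5th and 95th percentile). The red points are all below 0, with a median of -0.63, and the G1 list is centred at 0.020.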

How the data were processed

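Poly(A) RNA of 6 Huh7 cultures was sequenced. The authors deposited raw read counts and FPKM values (scaled by the authors for length and depth) per gene and library. The submitters' notes name TopHat2, Cufflinks, DESeq and the build mm10, although the identifiers are human. The counting program, annotation and strand setting are not given in the sources used here. The labels describe extraction from honeybee larvae, whereas the genes are human. Lines of annotation text (34) were left out.

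The counts were tested with edgeR 4.0.16 under R 4.3.3 (filterByExpr, minimum count 10, total 15; TMM; quasi-likelihood test, group only), with Benjamini-Hochberg adjustment over all 17531 genes and loci tested. All adjusted p for single genes come from this test unless stated, with standard errors from the fold change and F statistic. The scripts were tested on simulated data. Alternatives used DESeq2 1.42.0 and limma 3.58.1 on log2(FPKM + 0.1) and log2(FPKM + 1). GC content and transcript length were also fitted as a per-library offset. Positions, exon overlaps and transcripts are those of GENCODE release 29 (GRCh38). Values per library are named for FOXM1, MKI67, TOP2A, CCNB1, CDK1 and the 6 highest and 6 lowest log2 fold changes, and BUB1 was added. Of other lists, genes past 2-fold and the extremes are named. The members and lists were chosen with earlier results of these data known. A gene of the marker lists is not reported here.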

Additional observations from a re-analysis of the deposited data

How the results depend on the processing

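The 40 genes were recomputed under 17 alternatives, 3 of them (annotated genes only, the GC and length offset, summed overlapping genes) chosen after seeing the data. Of 680 values, 674 gave the same call as before, 5 no longer passed an adjusted p of 0.05 and 1 changed direction. The 5 were CENPA (4 left-out libraries) and KIF4A (1). CENPA changed direction, to 0.016, only when summed with SLC35F6, whose reads outnumber its own. The count of lower genes was 37 to 39 and that of higher genes 0 throughout. The median was -0.67 to -0.58. The number past 2-fold at an adjusted p under 0.001 was 5 to 9 with each library left out in turn and 4 with the GC and length offset (the cause was not tested). That offset also changed the split over annotated genes, from 3576 higher and 3528 lower to 3272 and 4303. Over all genes and loci it was 4093 and 3923, and without TMM factors 4378 and 3556, with 39 members lower. With the replicate number as a block, 39 were lower, 0 higher and 7 past 2-fold (median -0.64). The numbers were not taken as pairs, since deviations of same-numbered samples correlated by only 0.0290, 0.0314 and 0.0317, although each library correlated best with its own number. All 40 genes were well above the depth limit.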
